A study of Mus musculus with 23 samples.

Results

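Severe anemia was compared with moderate anemia in the hippocampus of male (XY) mouse pups. The comparison rests on 8 libraries of polyadenylated RNA, 4 from males with severe phlebotomy-induced anemia (sPIA males) and 4 from males with moderate phlebotomy-induced anemia (mPIA males), out of 23 libraries in all. They were chosen by their labels alone. Pups were bled from postnatal day 3, at first with 5.25 µl per g of body weight at each draw, 2 draws a day, until the haematocrit (how much of the blood is red cells) had come down to 18% in sPIA or 25% in mPIA. Daily draws of 3.5 µl per g followed until day 14, when the hippocampus was taken. Non-bled controls (NBC), which only received a needle prick, are represented here by 3 males, and their levels are given as a reference. The labels name no strain, genotype, litter or measured haematocrit for any mouse. The design text speaks of 4 males per group, so each library was read as 1 mouse.

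Repeated blood loss lowers both the oxygen that reaches the brain and the iron that is left for it. Cells answer low oxygen through hypoxia-inducible factors (HIF), whose targets include vascular growth factors and enzymes of glycolysis. Iron is also a cofactor of the mitochondrial respiratory chain and of enzymes that make myelin lipids and transmitters. In the second postnatal week the mouse hippocampus is still forming synapses, and the dentate gyrus is still producing granule neurons. Immediate early genes are switched on within minutes by synaptic activity and serve as its record, while the clock genes follow the hour of the day and, in part, glucocorticoid hormones.

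The labelled sex and tissue were checked first. Xist, made only from an inactive X chromosome, lay at or below 0.837 CPM (the library's counts scaled to a total of 1e6) in every male library, and the Y-linked Ddx3y at 75.2 to 92.7 CPM. Markers of hippocampal neurons were present in all 8 libraries, with Prox1 of the dentate gyrus at 71.5 to 126 CPM and Slc17a7 of excitatory neurons at 1316 to 1737 CPM. Wfs1, a marker of CA1 neurons, lay at 207 to 237 CPM in mPIA males, 102 to 176 CPM in sPIA males and 111 to 187 CPM in NBC males, and its difference did not pass (log2 change -0.74, SE 0.24, adjusted p = 0.0793, edgeR). In units of 1e6 counts, library totals were 21.9 ± 1.95 in mPIA males (SD, n = 4) and 20.1 ± 1.38 in sPIA males (SD, n = 4). The library codes in the labels begin with M in every mPIA male and with P in every sPIA male, and their running S numbers are 41 to 44 and 13 to 16. The sources used here do not say what the codes stand for. The code series and the severity of anemia cannot be told apart, since no prefix holds mice of both groups. NBC males carry P codes with S numbers 38 to 40.

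Of 15475 genes tested, 762 (4.92%) differed between sPIA and mPIA males in edgeR's quasi-likelihood test at an adjusted p below 0.05. A gene that passed is called here higher or lower, always in sPIA relative to mPIA. Called higher were 329 genes (2.13%) and called lower 433 (2.8%). Most changes were small: the median size of a called change was 0.38 on the log2 scale, and 91 called genes reached a log2 change of 1 in either direction, 62 of them higher and 29 lower. In 625 of the 762 the CPM of the 4 sPIA males and the 4 mPIA males did not overlap. Over all genes tested the groups were separate with sPIA higher in 752 (4.86%) and with sPIA lower in 888 (5.74%). The count depended on single mice: it was 229 without mPIA male 1, 355 without mPIA male 4, 302 without sPIA male 1, 306 without sPIA male 2 and 1341 without sPIA male 4.

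Activity-regulated genes fell. Of 28 immediate early genes tested, 8 were called lower and 0 higher (28.6% of the list, beside 4.92% of all genes), and 23 had a lower value. The list's median log2 change was -0.30, beside -0.00 for all genes. The summed level of the list was 1428 to 1633 CPM in mPIA males and 1198 to 1361 CPM in sPIA males. In NBC males it was 1206 to 1550 CPM, which overlaps both.

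Nr4a1 (chromosome 15, 101254269 to 101274795, plus strand), an orphan nuclear receptor that neurons induce on firing, lay at 62.8, 73.9, 70.8 and 71.9 CPM in mPIA males 1 to 4 and at 32.9, 34.4, 30.9 and 34.0 CPM in sPIA males 1 to 4. The groups were far apart, and the levels varied little within each. Its log2 change was -1.08 (SE 0.14, adjusted p = 0.00027, edgeR). NBC males 2, 3 and 4 lay at 54.2, 37.8 and 27.3 CPM, thus below the mPIA males and spread around the sPIA males. Egr4 (chromosome 6, 85511121 to 85513589, minus strand), a zinc finger transcription factor of the same response, lay at 19.4, 21.4, 18.7 and 23.2 CPM in mPIA males and 11.4, 10.8, 12.1 and 12.7 CPM in sPIA males. Every sPIA male was below every mPIA male, by a log2 change of -0.81 (SE 0.12, adjusted p = 0.000318). Arc (chromosome 15, 74669083 to 74672570, minus strand), whose product removes AMPA-type glutamate receptors from synapses, lay at 129, 141, 136 and 117 CPM in mPIA males and at 82.2, 58.6, 70.7 and 59.2 CPM in sPIA males. These groups did not overlap either, and the log2 change was -0.95 (SE 0.17, adjusted p = 0.00602). NBC males spanned 69.1 to 132 CPM for Arc, across the gap.

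The remaining called members fall outside the rule for named genes and are given because they complete the list. Fos, a subunit of the AP-1 factor, lay at 13.9 to 24.7 CPM in mPIA males and 6.69 to 11.8 CPM in sPIA males (log2 change -1.08, adjusted p = 0.0158). Npas4, a factor made only after neuronal depolarisation, lay at 12.7 to 19.4 and 7.29 to 8.96 CPM (-1.01, adjusted p = 0.0314). Junb (-0.66), Dusp1, a phosphatase that shuts off MAP kinases (-0.68), and Egr1 (-0.48) were the others. Bdnf, a neurotrophin that activity induces too, did not move with them: it lay at 58.9 to 71.1 CPM in mPIA males and 53 to 75.9 CPM in sPIA males, with a log2 change of -0.00 (SE 0.11). The number of immediate early genes called was 5 without mPIA male 2 and 4 once each library's trend with GC content and transcript length had been removed (Nr4a1, Egr4, Arc and Fos).

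**Figure D1:**
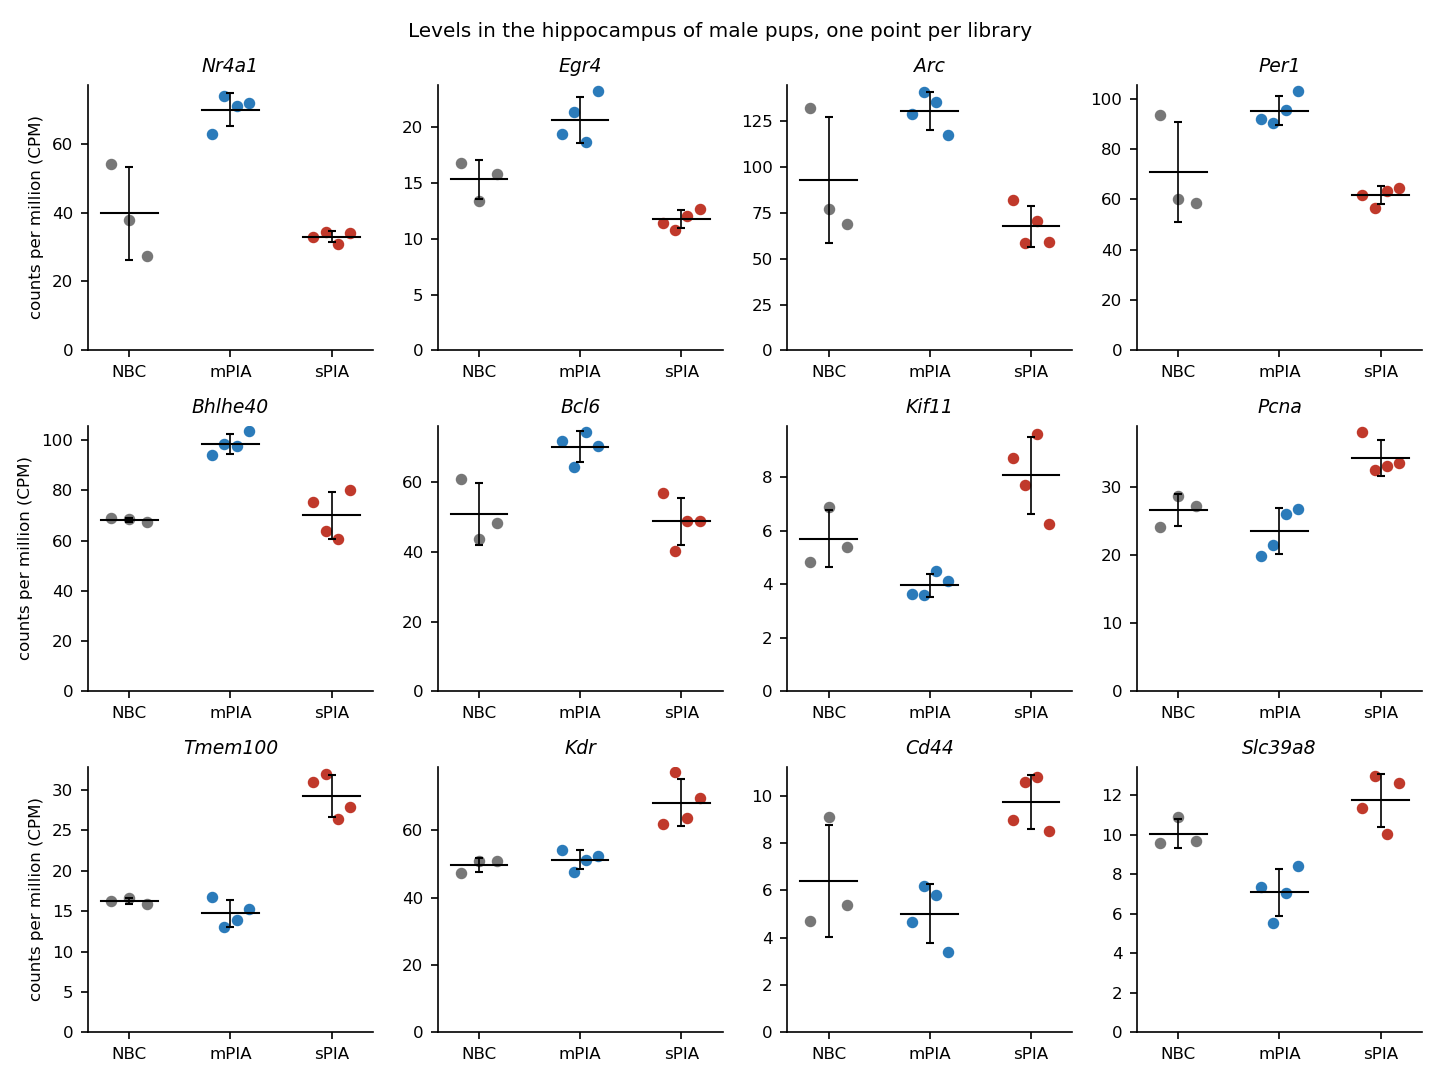
Levels (CPM) of 12 genes in male pups, one point per library, with the group mean (line) and SD (bars) in NBC (n = 3), mPIA (n = 4) and sPIA (n = 4). In each panel the sPIA and mPIA points are separate, with Nr4a1, Egr4, Arc, Per1, Bhlhe40 and Bcl6 lower in sPIA and the other 6 genes higher.

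Clock genes were lower in the severely than in the moderately anemic males. Of 21 tested, 7 were called lower (33.3%, beside 4.92% of all genes) and 0 higher, and the list's median was -0.19. The list summed to 1479 to 1615 CPM in mPIA males and 1349 to 1439 CPM in sPIA males. NBC males, at 1397 to 1466 CPM, lay below the mPIA males and overlapped the sPIA males. Per1 (chromosome 11, 69095217 to 69109960, plus strand), a repressor in the clock's feedback loop, lay at 92.0, 90.41, 95.7 and 103 CPM in mPIA males and 61.9, 56.7, 63.5 and 64.7 CPM in sPIA males. The highest sPIA male was well below the lowest mPIA male, and the log2 change was -0.63 (SE 0.12, adjusted p = 0.00535). Bhlhe40 (chromosome 6, 108660629 to 108666925, plus strand), a repressor that both the clock and hypoxia induce, lay at 94.0, 98.5, 97.7 and 104 CPM in mPIA males and 75.6, 63.7, 60.8 and 80.2 CPM in sPIA males. These values did not overlap (log2 change -0.49, SE 0.08, adjusted p = 0.0021), and the NBC males, at 67.2 to 69.1 CPM, lay among the sPIA males. Cry2, the partner of the PER proteins, fell by 0.23 on the log2 scale (adjusted p = 0.0194). Ciart (-0.72), Npas2 (-0.54), Nr1d1 (-0.45) and Dbp (-0.39) were also called. The clock count depended on single libraries: it was 2 without mPIA male 1, without mPIA male 2 or without sPIA male 2, and 3 without sPIA male 1. With the GC and length trend removed it was 3 (Ciart, Bhlhe40 and Per1). The sources used here do not give the hour at which a pup was killed, and its part in these values was not tested.

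The promoters of 3 of these clock genes are shown because they hold the short motifs that were searched, ACGTG (the core of the hypoxia response element) and CACGTG (the E-box that the clock's activators bind). Each runs from 250 bases before the RefSeq start site to 50 bases after it (build GRCm38.p6), reads 5′ to 3′ on the gene's strand and has matches on either strand in capitals. A CACGTG match contains ACGTG on both strands, so the motifs overlap. Where RefSeq lists several starts for a gene, the one nearest to the start of the GENCODE gene was taken. Ciart falls outside the rule for named genes and was picked with its values known.
Per1, chr11:69098699-69098998, plus strand: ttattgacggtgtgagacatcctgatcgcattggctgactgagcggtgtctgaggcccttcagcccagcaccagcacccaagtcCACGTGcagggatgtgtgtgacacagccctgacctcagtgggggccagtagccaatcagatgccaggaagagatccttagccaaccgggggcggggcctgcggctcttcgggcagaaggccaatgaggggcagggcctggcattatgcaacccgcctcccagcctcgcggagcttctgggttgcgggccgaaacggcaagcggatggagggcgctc
Cry2, chr2:92434020-92434319, minus strand: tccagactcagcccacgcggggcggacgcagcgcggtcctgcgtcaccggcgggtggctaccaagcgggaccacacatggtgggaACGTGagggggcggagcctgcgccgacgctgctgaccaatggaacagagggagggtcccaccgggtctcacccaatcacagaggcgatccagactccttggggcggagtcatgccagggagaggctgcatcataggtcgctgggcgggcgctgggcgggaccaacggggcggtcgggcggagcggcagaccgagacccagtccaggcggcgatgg
Ciart, chr3:95882179-95882478, minus strand: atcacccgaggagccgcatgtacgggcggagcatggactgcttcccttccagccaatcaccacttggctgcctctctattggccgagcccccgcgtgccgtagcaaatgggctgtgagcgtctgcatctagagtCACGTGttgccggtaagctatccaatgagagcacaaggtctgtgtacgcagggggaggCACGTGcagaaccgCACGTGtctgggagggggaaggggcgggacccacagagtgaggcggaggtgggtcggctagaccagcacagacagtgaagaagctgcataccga

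Per1 holds 1 E-box at positions -166 to -161 from the start site, which counts as 0. Ciart holds 3, at -116 to -111, -58 to -53 and -44 to -39, and Cry2 holds ACGTG at -165 to -161 with no E-box. Of the 7 called clock genes 6 had a promoter in the table, and all 6 held ACGTG, 2 of them as CACGTG. Of the 14 clock genes that were not called 12 had a promoter, 4 with ACGTG and 3 with CACGTG. Among the 11627 tested genes with a promoter, 24.8% held ACGTG and 9.74% held CACGTG, and among all 32851 promoters of this length 19.6% and 7.15% did. Of 6 called immediate early genes with a promoter, 1 held ACGTG, and 1 held TGACGTCA, the cAMP response element, which 1.79% of all promoters and 3.15% of those of tested genes hold. Both matches were in Dusp1. Of 15 immediate early genes with a promoter that were not called, 6 held ACGTG and 1 held TGACGTCA. A match is a string of letters in this window, with no evidence of binding in these data.

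Targets of the glucocorticoid receptor, through which stress hormones act, were lower as well. Of 23 tested, 5 were called lower (21.7%, beside 4.92% of all genes) and 0 higher, 22 had a lower value, and the median was -0.26. The list summed to 1285 to 1449 CPM in mPIA males and 1094 to 1286 CPM in sPIA males. NBC males, at 1244 to 1339 CPM, overlapped both. Bcl6 (chromosome 16, 23965052 to 23988852, minus strand), a transcriptional repressor, lay at 71.8, 64.3, 74.6 and 70.4 CPM in mPIA males and 56.9, 40.4, 49 and 49 CPM in sPIA males, with no overlap (log2 change -0.52, SE 0.10, adjusted p = 0.00481). Mt1, a metallothionein that binds zinc and copper, lay at 73.5 to 89.6 CPM and 54.3 to 57.9 CPM, again with no overlap (-0.50, SE 0.11, adjusted p = 0.0099). Tsc22d3, a classical glucocorticoid target also known as Gilz, fell by 0.34 on the log2 scale (adjusted p = 0.0425). Per1 and Dusp1 stand on this list as well as on those above, so the 3 lists are not separate measurements. Leaving out single mice gave 4 to 6 called glucocorticoid targets, and removing the GC and length trend gave 3.

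Genes of dividing precursors were higher in sPIA males. Of 32 genes of neurogenesis and proliferation, 8 were called higher (25%, beside 4.92% of all genes) and 0 lower. A higher value was found in 28, and the median was 0.45. The summed level of the list was 589 to 762 CPM in mPIA males, 857 to 905 CPM in sPIA males and 799 to 854 CPM in NBC males. Kif11 (chromosome 19, 37376403 to 37421859, plus strand), a motor that separates the poles of the mitotic spindle, lay at 3.65, 3.60, 4.51 and 4.11 CPM in mPIA males and 8.71, 7.69, 9.63 and 6.26 CPM in sPIA males. The groups did not overlap (log2 change 1.02, SE 0.18, adjusted p = 0.00305), and NBC males, at 4.83 to 6.89 CPM, lay above the mPIA males and reached into the range of the sPIA males. Pcna, the sliding clamp of DNA replication, lay at 19.8, 21.5, 26.0 and 26.8 CPM and at 38.1, 32.4, 33.0 and 33.5 CPM (0.54, SE 0.11, adjusted p = 0.00583), and the groups did not overlap. Draxin, a secreted axon guidance protein of young dentate neurons, was at 4.99 to 9.50 CPM in mPIA males and 13.55 to 21.9 CPM in sPIA males (1.10, SE 0.19, adjusted p = 0.00291). It lies on chromosome 4 (148098437 to 148130698), in the window of 140 to 150 Mb where called genes cluster, described below.

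Other called members, outside the rule for named genes, were Aurkb (1.18), Top2a (0.80), Cenpf (0.74), Nes, the intermediate filament of neural stem cells (0.51), and Ccnd2 (0.26). Mki67, the usual marker of cycling cells, was at 5.64 to 14.5 CPM in mPIA males and 13.7 to 20.4 CPM in sPIA males, which overlap, and did not pass (0.76, SE 0.23, adjusted p = 0.0603). Dcx of immature neurons did not pass either (0.29, SE 0.14, adjusted p = 0.221). Within the mPIA males, mice 1 and 2 were the lowest for Top2a (6.22 and 5.17 CPM, beside 11.28 and 9.79 CPM) and for Mki67. Called members numbered 3 without mPIA male 1, mPIA male 2 or sPIA male 1, 5 without sPIA male 2 or 3, and 4 with the GC and length trend removed (Pcna, Nes, Kif11 and Draxin). In bulk tissue such as this, more cells of a type and more RNA per cell cannot be told apart.

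**Figure D2:**
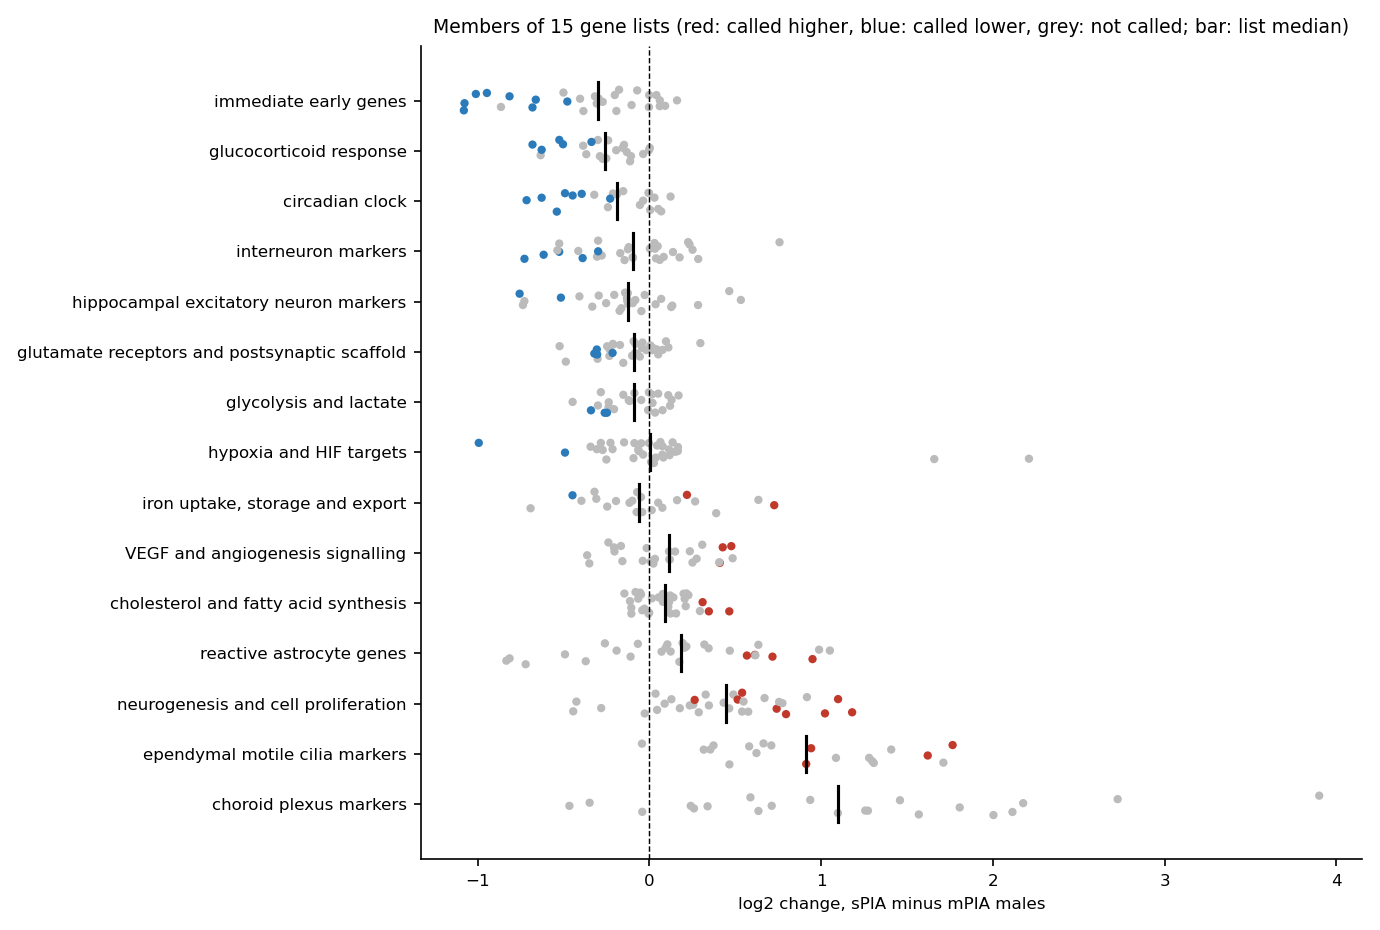
Log2 change of sPIA minus mPIA males (x axis) for each tested member of 15 gene lists, with members called higher in red, called lower in blue and not called in grey. Bars are list medians and the dashed line is the median of all genes. Immediate early, glucocorticoid and clock genes lie to the left (medians -0.30, -0.26 and -0.19) and the proliferation list to the right (0.45). The cilia list also lies to the right (median 0.91), with 4 of 19 members called higher. The choroid plexus list has a median of 1.10 and 0 called members.

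Several of the largest rises were in genes of motile cilia. Of the 10 largest rises taken by rule, Dnah6 (2.23) and Dnah11 (1.77), both axonemal dynein heavy chains, Ak7 (1.91), an adenylate kinase of cilia, and Ttc21a (1.53) belong to motile cilia, which ependymal cells carry at the ventricle wall. Ak7 lay at 1.34, 1.06, 2.13 and 1.04 CPM in mPIA males and 5.94, 5.06, 6.08 and 4.07 CPM in sPIA males (SE 0.36, adjusted p = 0.00481). The groups were well apart, and 2 of the 3 NBC males (2.61, 4.56 and 7.06 CPM) lay with the sPIA males or above them. Dnah6 was at 1.54 to 3.22 CPM and 5.98 to 17.3 CPM (SE 0.48, adjusted p = 0.0148). Of 19 ependymal genes tested 4 were called higher (21.1%, beside 4.92% of all genes) and 0 lower, with 18 higher values and a median of 0.91. The sum of the list was 72.6 to 83.4 CPM in mPIA males and 95.3 to 130 CPM in sPIA males. In NBC males it was 91.5 to 196 CPM.

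Among markers of tissue next to the hippocampus, those of choroid plexus and meninges had mostly higher values, none of which passed. Choroid plexus genes had a higher value in 18 of 21 members and a median of 1.10, with 0 called and 0 with separate groups, and their sum was 134 to 201 CPM in mPIA males and 155 to 381 CPM in sPIA males. Ttr, its most abundant transcript, lay at 8.07, 22.6, 29.4 and 1.37 CPM in mPIA males and 135, 111, 16.1 and 6.16 CPM in sPIA males. Meningeal genes had a higher value in 20 of 22 members, with 0 called and a median of 0.45. Deep cortical and subicular markers had a lower value in 12 of 18 members (median -0.10), and Fezf2 was called lower. Thalamic and striatal markers had a higher value in 9 of 14 members (median 0.09), and Penk was called lower. With a score of choroid plexus and ependymal genes as a covariate, 300 genes were called in place of 762. The score is built from those lists, so their own values under it say nothing. The proliferation list then had 5 of its 8 called genes and a median of 0.50, the immediate early list 7 of 8 and a median of -0.25, and the clock list 2 of 7 and a median of -0.14. Without mPIA male 1, 0 ependymal genes were called, 1 was called without mPIA male 2 or sPIA male 1, and 2 without mPIA male 3, mPIA male 4 or sPIA male 2.

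The HIF targets, which respond most directly to low oxygen, were not shifted as a set between the degrees of anemia. Of 34 tested 17 had a higher and 17 a lower value, and the median was 0.00. The 2 called genes (5.88%, beside 4.92% of all genes) were both lower, Bhlhe40 and Hif3a. Hif3a, a HIF subunit of which some forms inhibit the pathway, lay at 12.1 to 19.7 CPM in mPIA males and 6.48 to 10.3 CPM in sPIA males (-0.99, SE 0.26, adjusted p = 0.0339). Vegfa, the main hypoxia-induced growth factor of vessels, lay at 110 to 130 CPM in mPIA males and 118 to 142 CPM in sPIA males (0.11, SE 0.09, adjusted p = 0.466), beside 85.6 to 110 CPM in NBC males. Adm, a vasodilator peptide that hypoxia induces, was at 3.70 to 4.22 CPM and 3.32 to 4.81 CPM (-0.07, SE 0.21, adjusted p = 0.893), beside 2.30 to 2.86 CPM in NBC males. Slc2a1, the glucose transporter of the blood-brain barrier, did not pass (-0.28, SE 0.12, adjusted p = 0.175).

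Of 25 genes of VEGF signalling and angiogenesis 3 (12%, beside 4.92% of all genes) were called higher and 0 lower, with a median of 0.11. Kdr (chromosome 5, 75932827 to 75978458, minus strand), the main VEGF receptor of endothelium, lay at 54.2, 47.5, 51.1 and 52.4 CPM in mPIA males and 61.9, 77.4, 63.7 and 69.7 CPM in sPIA males. The ranges were separate (0.41, SE 0.08, adjusted p = 0.00583), and the NBC males, at 47.4 to 51 CPM, lay with the mPIA males. Cxcl12, a chemokine that guides endothelial and precursor cells, was at 78.7 to 113 CPM and 114 to 151 CPM (0.43, SE 0.12, adjusted p = 0.0402), and its receptor Cxcr4 rose as well (0.48, SE 0.13, adjusted p = 0.0344). Without mPIA male 3 or mPIA male 4, and with the GC and length trend removed, 1 of these 3 was called in each case. Cxcl12 and Cxcr4 each lost their call in 11 of 19 alternatives, also without sPIA male 2 and with only the 8 libraries.

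Tmem100 (chromosome 11, 90030348 to 90036508, plus strand), a membrane protein downstream of BMP9 and ALK1 in endothelium that also stands on the list of oligodendrocyte precursors, had the smallest adjusted p along with Fbxo44. It lay at 16.8, 13, 13.9 and 15.2 CPM in mPIA males and 30.9, 31.9, 26.3 and 27.9 CPM in sPIA males. All 4 sPIA males were well above the rest, the NBC males at 15.9 to 16.6 CPM included (log2 change 0.99, SE 0.11, adjusted p = 1.86e-05).

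Iron genes did not move as a set. Of 22 tested, 2 were called higher and 1 lower (13.6% of the list, beside 4.92% of all genes), with a median of -0.06. Slc39a8 (chromosome 3, 135825279 to 135888572, plus strand), a divalent metal importer of zinc, manganese and iron, lay at 7.35, 5.54, 7.06 and 8.42 CPM in mPIA males and 11.34, 12.95, 10.03 and 12.6 CPM in sPIA males (0.73, SE 0.13, adjusted p = 0.00395). Ireb2, the iron regulatory protein that protects transferrin receptor RNA when iron is short, rose by little (0.22, SE 0.06, adjusted p = 0.0421). Slc25a37, the mitochondrial iron importer, fell by 0.45 on the log2 scale (SE 0.12, adjusted p = 0.0263). Tfrc, the transferrin receptor and a usual sign of iron need, varied as much within as between groups: it lay at 315, 368, 248 and 418 CPM in mPIA males and 216, 375, 265 and 426 CPM in sPIA males (-0.07, SE 0.25, adjusted p = 0.894). Of 25 glycolytic genes 3 (12%) were called lower, Ldhb (-0.34), Pkm (-0.26) and Eno2 (-0.25). Of 32 nuclear genes of oxidative phosphorylation 2 were called lower, Cox5b (-0.24) and Cox6a1 (-0.26). That share, 6.25%, is near the 4.92% of all genes, and each of these 2 lost its call in 11 of 19 alternatives.

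Neuronal genes that were called were mostly lower. Of 31 interneuron markers 5 were called lower (16.1%, beside 4.92% of all genes) and 0 higher, with a median of -0.10. Sst, the peptide of somatostatin interneurons, lay at 158, 159, 113 and 162 CPM in mPIA males and 93.0, 104, 87.8 and 101 CPM in sPIA males, with no overlap though mPIA male 3 came close (-0.62, SE 0.13, adjusted p = 0.0123). Slc32a1, the vesicular transporter of GABA, lay at 57.8 to 64.2 CPM and 43.1 to 53.9 CPM (-0.30, SE 0.08, adjusted p = 0.029). The others were Penk (-0.53), Htr3a (-0.73) and Lamp5 (-0.39). The interneuron count fell to 1 without mPIA male 1, mPIA male 2 or sPIA male 2, to 2 without mPIA male 3, mPIA male 4 or sPIA male 1, to 3 without sPIA male 3, to 2 with DESeq2 size factors and to 0 with the GC and length trend removed. Of 32 glutamate receptor and postsynaptic genes 4 (12.5%) were called lower: Grin1, the obligate NMDA receptor subunit (-0.32), Nrgn (-0.30), Grik5 (-0.31) and Dlg4, which encodes PSD-95 (-0.21). That count was 2 without mPIA male 1, mPIA male 4, sPIA male 1 or sPIA male 2 and 6 without mPIA male 2. With the GC and length trend removed it was 2, Gria3 and Dlg4, and Grin1 and Nrgn no longer passed. Of 28 excitatory neuron markers tested, 2 (7.14%) were called, Pou3f1 (-0.76, adjusted p = 0.0021) and Fezf2 (-0.52). Neither passed with that trend removed. Fezf2 lost its call in 10 of 19 alternatives.

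Glial and immune lists differed in their share of calls, beside 4.92% of all genes. The share was 12.5% or more for reactive astrocyte genes, cytokines and NF-kB, astrocyte identity and oligodendrocyte precursors. It was 7.69% or less for the microglial, myelin, interferon and MHC, and complement lists. Of 24 astrocyte identity genes, Aqp4 was called higher (0.61), and Gjb6 (-0.51) and Ntsr2 (-0.37) lower. None of them passed with the GC and length trend removed. Among 28 reactive astrocyte genes 4 were called higher: Cd44, the hyaluronan receptor (0.95, SE 0.20, adjusted p = 0.00928), Srgn (0.72), S100a10 (0.61) and Vim (0.57). Cd44 lay at 4.68, 6.19, 5.81 and 3.40 CPM in mPIA males and 8.99, 10.6, 10.8 and 8.51 CPM in sPIA males, with no overlap. Gfap, the usual marker of astrocyte reaction, did not pass, at 200 to 309 CPM and 262 to 360 CPM (0.20, SE 0.14, adjusted p = 0.408). The reactive list had 1 called member without mPIA male 2, mPIA male 4, sPIA male 1 or sPIA male 2. B2m, the light chain of MHC class I, was at 25.7 to 30.5 CPM in mPIA males and 38 to 52 CPM in sPIA males (0.66, SE 0.11, adjusted p = 0.0021), and it was the 1 called gene of 26 in the interferon and MHC list. Of 26 microglial markers P2ry12 (0.32) and Selplg (-0.55) were called in opposite directions, of 26 myelin genes Cryab alone (-0.88), and of 18 complement genes 0 (2 at an unadjusted p below 0.05). Of 32 genes of cholesterol and fatty acid synthesis 3 were called higher, Hmgcs1 (0.47), Sqle (0.35) and Cyp51 (0.31), enzymes of the sterol pathway for which NBC males lay within or below the range of sPIA males.

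Several of the called genes lay together at the far end of chromosome 4, a pattern that was noticed in these data and is given as a description. Of 912 tested genes on that chromosome 74 were called (8.11%), the highest share of any chromosome. In windows of 10 Mb (at least 20 tested genes each, 232 windows), that from 140 to 150 Mb had 19 of 78 genes called (24.4%), 16 of them lower, beside a median of 4.46% per window and at most 17.2% on any other chromosome. After removal of the GC and length trend it had 11 of 78 (14.1%), beside 1.70% of all genes, and was still first, but with 4 higher and 7 lower. The next window was then that of 110 to 120 Mb on chromosome 13, with 4 of 35 genes called (11.4%). From 140 Mb to the end of chromosome 4, 27 genes were called, 22 lower and 5 higher, and 18 of the 27 passed after that removal.

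Slc2a5 (chromosome 4, 150119283 to 150144169, plus strand), the fructose transporter GLUT5, which microglia express in brain, had the largest fall taken by rule. It lay at 4.32, 5.77, 5.72 and 2.98 CPM in mPIA males and 1.01, 1.01, 0.861 and 0.857 CPM in sPIA males, so that the sPIA males were nearly uniform and separate (-2.32, SE 0.34, adjusted p = 0.000364). Fbxo44 (chromosome 4, 148152800 to 148160482, minus strand), a substrate receptor of a ubiquitin ligase, lay at 76.5, 75.3, 60.6 and 69.2 CPM and at 43.2, 34.0, 36 and 41.9 CPM (-0.86, SE 0.10, adjusted p = 1.86e-05). Here NBC males, at 60.2 to 66.4 CPM, lay near the mPIA males and well above the sPIA males. Kcnab2 (chromosome 4, 152390742 to 152477871, minus strand), an auxiliary subunit of voltage-gated potassium channels, lay at 481, 430, 429 and 405 CPM and at 312, 200, 256 and 253 CPM (-0.77, SE 0.10, adjusted p = 0.000178). It overlaps Nphp4 on the other strand (-0.68, adjusted p = 0.00196), and since the counting is not stated to use strand, reads of the 2 cannot be told apart at their ends. Miip, next to these at 147860778 to 147868816, lay at 14.5 to 20.6 CPM and 6.93 to 10.7 CPM (-1.12, SE 0.16, adjusted p = 0.000364). Masp2, a protease of the lectin pathway of complement, rose from 0.426 to 0.627 CPM in mPIA males to 2.03 to 5.52 CPM in sPIA males (2.76, SE 0.57, adjusted p = 0.00887).

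Females of the same severity did not behave as 1 group at these genes. For Slc2a5 the sPIA females 1 to 4 lay at 4.19, 1.40, 4.43 and 1.40 CPM, and for Masp2 at 0.636, 2.95, 0.233 and 3.09 CPM. Females 2 and 4 thus lay near the sPIA males, and females 1 and 3 near the mPIA males and controls. The same held for Neo1, a netrin and repulsive guidance receptor on chromosome 9 (199, 263, 203 and 252 CPM in sPIA females, 255 to 306 CPM in sPIA males and 186 to 206 CPM in mPIA males). It held for 2610507I01Rik, a non-coding transcript on chromosome 11, at 2.23, 10.3, 1.40 and 10.6 CPM in sPIA females, 9.82 to 14.7 CPM in sPIA males and 0.874 to 1.85 CPM in mPIA males. Masp2, Neo1 and 2610507I01Rik fall outside the rule for named genes and were picked with their values known, as was Fbxo44. Over the 27 genes at the end of chromosome 4, 21 had a level in sPIA female 2 that was nearer to the mean of the sPIA males than to that of the mPIA males, as did 20 in sPIA female 4, 14 in sPIA female 3 and 4 in sPIA female 1. The codes of females 2 and 4 begin with P11 and P14, as do those of sPIA males 3 and 4, and those of females 1 and 3 with P03 and P13. The stems of sPIA males 1 and 2, P05 and P08, occur in no sPIA female. These males nonetheless showed the same levels, with Slc2a5 at 1.01 CPM in both and Masp2 at 2.03 and 5.52 CPM. The sources used here do not say what these stems stand for. NBC males, with stems P13, P14 and P15, did not share the pattern at Slc2a5 (2.15 to 4.09 CPM) or Masp2 (0.0523 to 0.987 CPM).

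**Figure D3:**
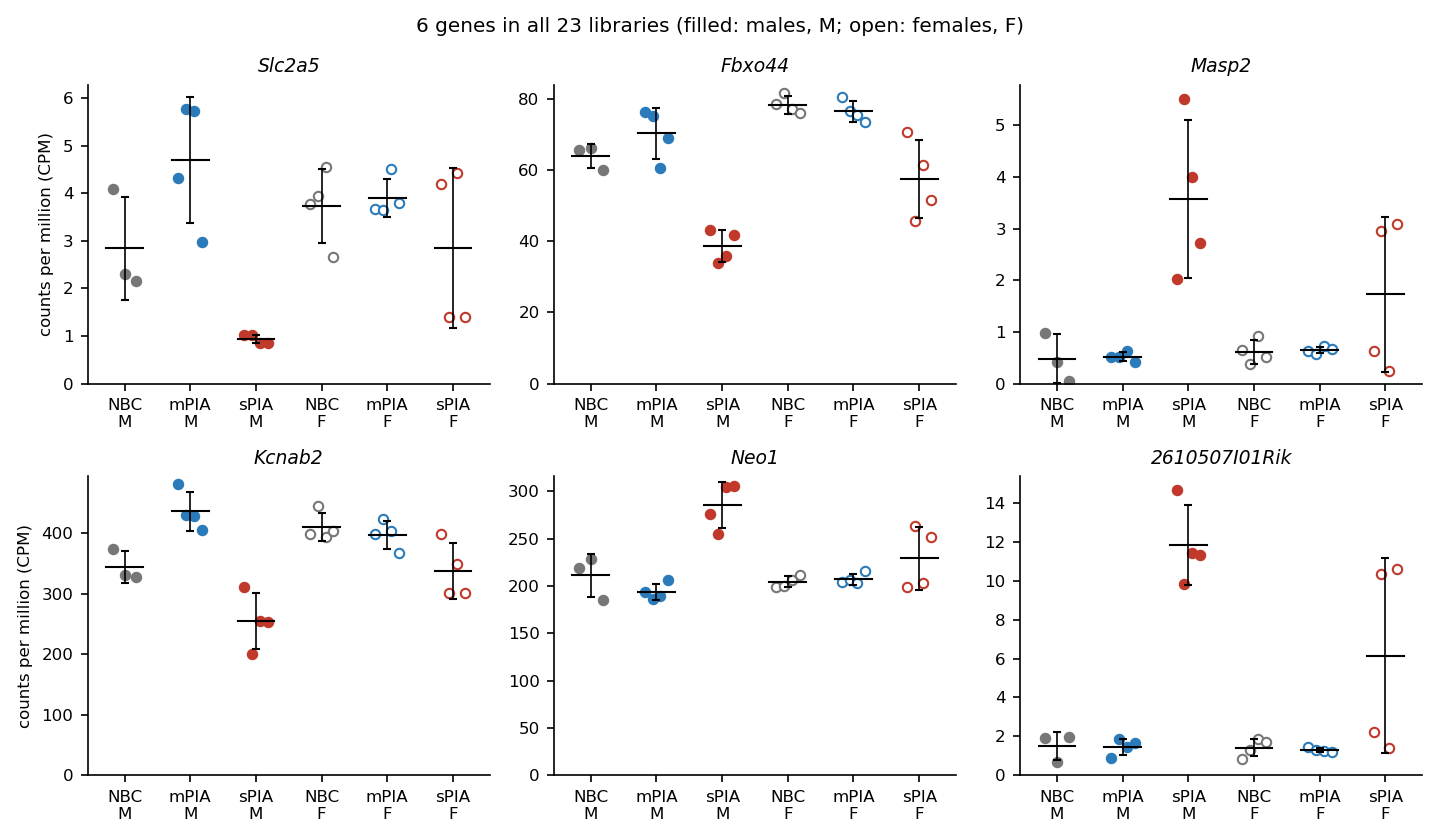
Levels (CPM) of 6 genes in all 23 libraries, one point per library (filled for males, open for females), with group means (line) and SD (bars). sPIA males stand apart from NBC and mPIA males in each panel, and among the sPIA females Slc2a5, Masp2, Neo1 and 2610507I01Rik split with females 2 and 4 near the sPIA males.

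Among the remaining large changes, Eno1b had the largest rise taken by rule, from 2.67 to 4.34 CPM in mPIA males to 16.8 to 46.0 CPM in sPIA males (3.49, SE 0.50, adjusted p = 0.0021). It is a near-identical copy of the enolase gene Eno1, so its counts are uncertain. The sPIA females 1 to 4 lay at 5.09, 24.0, 4.85 and 27.8 CPM, with the same pair apart. Lipg, endothelial lipase, rose by a log2 change of 2.26 (adjusted p = 0.0209), but sPIA male 1, at 1.01 CPM, lay within the range of the mPIA males (0.601 to 1.09 CPM). Samd11 (1.75) showed the same, with sPIA male 1 at 0.691 CPM and the others at 6.08 to 8.6 CPM, and it overlaps Noc2l (-0.48) at its end. Slc5a5, the sodium-iodide symporter, fell from 26.2, 28, 29.9 and 23.7 CPM to 13, 15.3, 9.12 and 13.4 CPM (-1.08, SE 0.16, adjusted p = 0.00114). Other falls taken by rule were Dcxr, an enzyme of sugar metabolism (-1.28), Mroh7 (-1.14), Ppp1r3g and Stbd1, which bind glycogen (-1.10 and -1.09), Crocc, the rootlet protein of cilia (-1.10), and Pla2g4e (-1.10). Other rises were Fam216b (1.64), Adamtsl3 (1.28) and Tlr13, a receptor for bacterial RNA (1.28).

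The called genes differed in base composition. Of the genes called higher 96.7% and of those called lower 97% had an annotated transcript, and the median GC content was 44.1% in the former and 56.8% in the latter, beside 49.8% over all genes tested. With the genes in 5 equal groups of GC content, from the lowest to the highest the number called higher went from 152 to 9 and the number called lower from 9 to 251. Spearman's rho over genes (which are not independent) between GC content and the deviation of each library from the overall mean was -0.10 to 0.30 in mPIA males and -0.40 to -0.08 in sPIA males, with overlap between mPIA male 2 and sPIA male 4. With each library's trend with GC content and transcript length removed, 263 genes were called, 130 higher and 133 lower, and 228 of them were among the 762 with the same direction. In NBC males, which carry P codes, rho was -0.26 to 0.02, which overlaps both anemic groups. Between sPIA and mPIA males the GC trend and the library code series move together with severity and cannot be told apart from it.

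**Figure D4:**
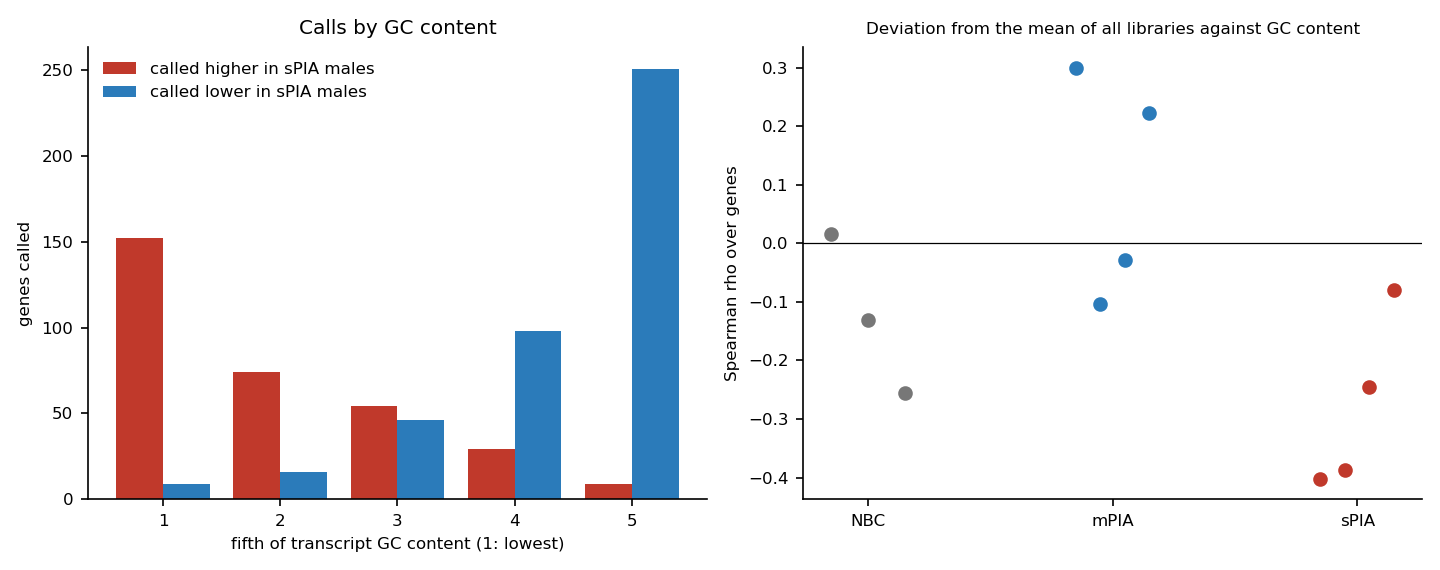
Left, number of genes called higher (red) and lower (blue) in sPIA males in 5 equal groups of transcript GC content. Right, Spearman's rho over genes between GC content and the deviation of each male library from the mean of 23, which lies at -0.10 to 0.30 in mPIA males and -0.40 to -0.08 in sPIA males.

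Each severity was also set beside the non-bled males. sPIA males differed from NBC males in 30 genes (0.194%) and mPIA males in 101 (0.653%). These comparisons share samples with each other and with that of sPIA and mPIA, so no overlap was computed. The controls themselves were uneven in Ttr, at 1.23 CPM in male 2, 2463 CPM in male 3 and 4377 CPM in male 4. Nr4a1 gave -0.27 for sPIA minus NBC (adjusted p = 0.49) and 0.81 for mPIA minus NBC (adjusted p = 0.017). Bhlhe40 gave 0.04 and 0.53 (adjusted p = 0.91 and 0.011), and B2m 0.19 and -0.46 (adjusted p = 0.53 and 0.056). For these 3 genes the mPIA males were the group farther from the controls. For Tmem100 the values were 0.85 (adjusted p = 0.0017) and -0.15 (0.59), for Fbxo44 -0.72 (0.0017) and 0.13 (0.56), and for Kdr 0.45 (0.019) and 0.04 (0.84). There the sPIA males were farther from the controls, as they were for Eno1b, with 3.58 (0.011) and 0.09 (0.96).

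The effect of severity was compared between the sexes by an interaction term in the same fit. In females, too, the code series coincides with severity. The codes of mPIA females begin with a number and those of sPIA females with P. Their rho with GC content was 0.15 to 0.47 in mPIA and -0.44 to 0.03 in sPIA females. Neither the changes in females nor the interaction can therefore be told apart from the code series. The interaction passed for 30 genes (0.194%), 9 with a positive and 21 with a negative male minus female difference. Gap43, a growth cone protein, rose by 0.34 in males (adjusted p = 0.0447) and fell by 0.35 in females (adjusted p = 0.015), a difference of 0.69 (adjusted p = 0.0338). The rise in males lost its call in 13 of 19 alternatives, without mPIA male 1, 2 or 3 or sPIA male 1, 2 or 4 and with the GC and length trend removed among them. Most of the other genes named by rule had little change in males. Foxn2 changed by 0.03 in males and 0.84 in females (difference -0.81, adjusted p = 0.0289), and Cdkl4 by -0.23 and -1.17 (0.94, adjusted p = 0.0492). The difference between sexes was not called for Nr4a1, Slc2a5 or Kcnab2, whose changes in females were -0.70 (adjusted p = 0.0013), -0.45 (0.34) and -0.24 (0.10), with adjusted p = 0.49, 0.0725 and 0.117 for the difference. This count rested on single libraries, with 0 genes without sPIA male 4, 1 without mPIA male 1, 5 without mPIA male 3, 17 without sPIA male 2, 50 without mPIA male 4, 57 without NBC male 4, 65 without sPIA male 1 and 78 without sPIA male 3.

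Of the 88 called genes that the rule named, 23 stayed called in the same direction under all 19 alternatives. They are Ak7, B2m, Bcl6, Bhlhe40, Cd44, Draxin, Egr4, Eno1b, Hmgcs1, Kcnab2, Kdr, Kif11, Marcks, Miip, Mt1, Nr4a1, Pcna, Per1, Slc2a5, Slc39a8, Slc5a5, Stbd1 and Tmem100. The log2 change ranged over the alternatives from -1.12 to -0.94 for Nr4a1 and from 0.90 to 1.07 for Tmem100, but from -0.85 to -0.51 for Egr4, from -0.65 to -0.45 for Per1 and from 1.55 to 2.21 for Ak7. The other 65 lost their call in at least 1 alternative. With the GC and length trend removed 44 did, among them Hif3a, Cxcl12, Cxcr4, Ireb2, Cry2, Sst, Slc32a1, Penk, Srgn, Vim, P2ry12, Selplg, Cryab, Pkm, Eno2, Cox6a1, Dcxr, Crocc, Dnah11 and Tlr13. The bar chart of genes called by setting shows the total under each alternative.

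**Figure D5:**
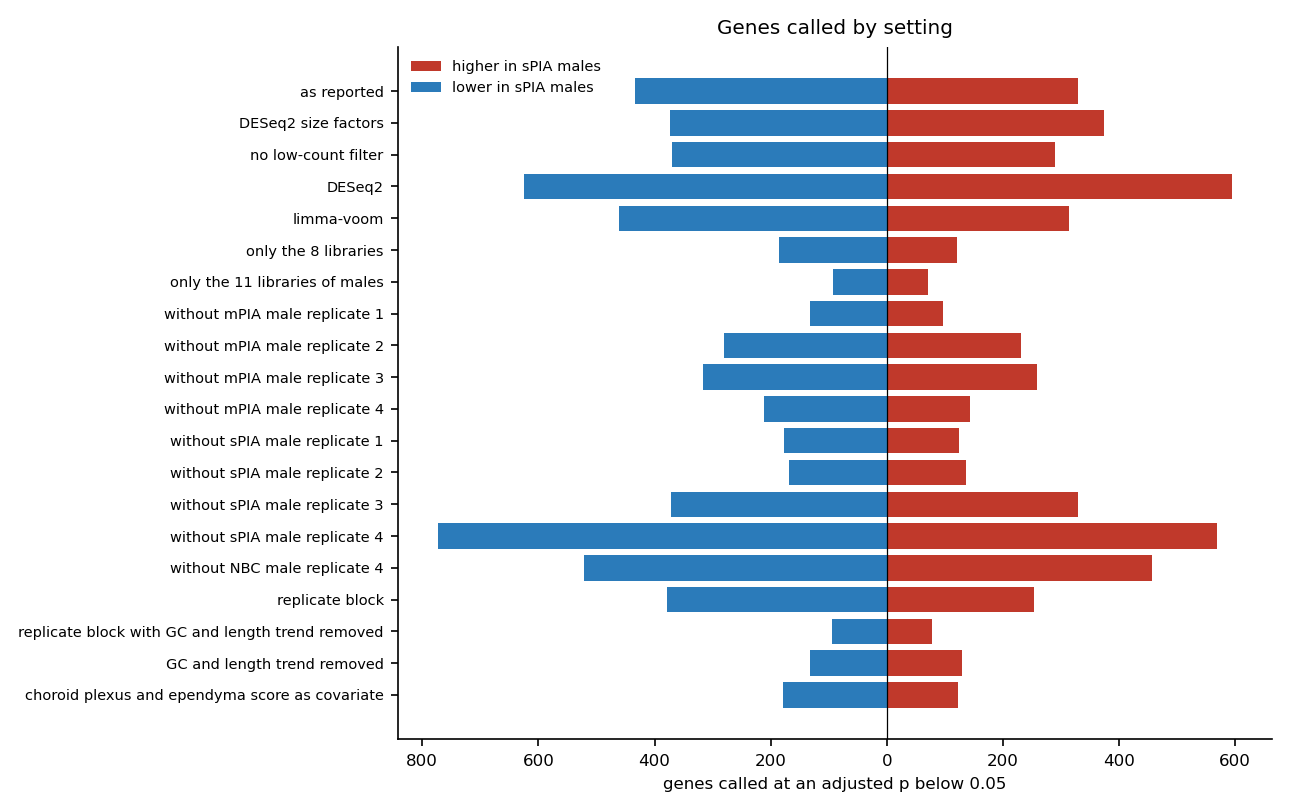
Number of genes called higher (red, to the right) and lower (blue, to the left) in sPIA relative to mPIA males under the reported fit and 19 alternatives. Calls range from 163 with only the 11 libraries of males to 1341 without sPIA male 4, and both directions occur under each.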

How the data were processed

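The values used are raw counts, deposited by the authors as 1 table of genes by libraries, all whole numbers with unequal totals. Tools listed in the submitters' processing notes are TopHat2 2.0.13, Subread, edgeR and FastQC, with build mm10. The sources used here do not give the annotation, the strand setting or how multi-mapping reads were treated. Per the labels, libraries were made by Illumina TruSeq protocols. All 23 libraries (totals of 15.2 to 44.4 in units of 1e6 counts) entered one fit with 6 group means (edgeR 4.0.16, robust quasi-likelihood, TMM, R 4.3.3). Of 24421 rows, 15475 passed filterByExpr (minimum count 10, minimum total 15). P-values were adjusted by Benjamini-Hochberg at 0.05, and the fit was tested on simulated data. CPM are scaled by TMM. Positions, GC content and length came from GENCODE release 21 of the mouse (M21, GRCm38), which names 95.6% of the rows. Another 27 rows are named by a date and were not named here.

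The rule for named genes took the 10 largest rises and falls among called genes whose mean log2 CPM was 1 or more, leaving out predicted models and pseudogenes, then up to 3 called members of each of 42 lists by p, and Adm, Vegfa, Kdr, Cxcl12, Slc2a1, Tfrc, Bdnf, Bhlhe40, Nr4a1, Ttr, Xist and Ddx3y. Not all are reported. The members and lists were chosen with earlier results of these data known. Of 958 list genes 4 had no row. No pair of replicates agreed within sampling noise, with 6.19 to 31.3 as chi-square over its degrees of freedom. The p-values set each group difference against a spread between samples that was estimated within the 6 groups of all 23 libraries, beyond the 8 compared. Alternatives used DESeq2 1.42.0 and limma 3.58.1, and figures matplotlib 3.10.9 in Python 3.11.15.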

Additional observations from a re-analysis of the deposited data

Results flagged for a closer look

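In 206 groups of 4 libraries (each named gene in sPIA males and in mPIA males), 11 had a library whose gap to its nearest neighbour was above Dixon's 95% critical value, where chance flags about 1 in 20. In mPIA males these were Dcxr at 5.76 CPM (nearest 3.55), Eno1b at 4.34 (2.93), Hsp90b1 at 458 (407), Ntsr2 at 149 (127), Pou3f1 at 61.0 (51.2), Rpl23a at 23.5 (12.5) and Sst at 113 (158). In sPIA males they were Gjb6 at 25.4 CPM (nearest 39), Hspa8 at 723 (916), Pkm at 701 (619) and Ppp1r3g at 1.61 (3.04).

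The change from mPIA to sPIA differed between the sexes, by an interaction term in edgeR's quasi-likelihood fit, for the following genes, each given as male minus female log2 change. The sign is that of this difference and does not say in which sex the change was larger. It was positive for Cdkl4 (0.94, adjusted p = 0.0492), Sstr1, a somatostatin receptor (0.82, 0.0338), Dpy19l1 (0.69, 0.0492), Gap43 (0.69, 0.0338) and Rpl21 (0.68, 0.0492). It was negative for Rpl23a (-1.26, 0.0293), H3f3a (-1.02, 0.0289), Foxn2 (-0.81, 0.0289), Wipf3 (-0.71, 0.0338) and Pcdh20, a protocadherin (-0.66, 0.0306). Rpl21, Rpl23a and H3f3a have many near-identical copies in the genome, so their counts are uncertain.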

How the results depend on the processing

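The 762 calls (329 higher, 433 lower) numbered 1220 with DESeq2 (595 and 625, with 301 adjusted p-values not given), 307 with only the 8 libraries (121 and 186), 163 with the 11 male libraries (71 and 92), 263 with the GC and length trend removed (130 and 133) and 300 with the choroid plexus and ependyma covariate (122 and 178). Leaving out 1 of the 8 mice gave 229 to 1341 calls (96 to 568 higher, 133 to 773 lower). Without NBC male 4 they were 977 (456 and 521). DESeq2 size factors gave 374 higher and 374 lower, a share higher of 50% in place of 43.2%; limma-voom gave 775 and no low-count filter 659. With the replicate number as a block the calls were 633 (254 and 379), and with the block and the GC and length trend removed 173 (78 and 95). The numbers are not stated to pair the mice. Same-numbered deviations had correlations of 0.00, 0.03, -0.00 and 0.07, and differently numbered ones of -0.06 to 0.08. With 4 libraries per group these values cannot show whether mice were paired. The sex difference passed for 30 genes, for 169 with DESeq2, 0 to 78 leaving out 1 mouse, 57 without NBC male 4, 42 with limma-voom, 43 with the GC and length trend removed and 8 with the block and that removal. All 88 called genes named by rule kept their sign in the 19 alternatives. Among genes that were not called, signs changed for Ttr (-1.57 to 2.65), Adm (-0.19 to 0.12), Tfrc (-0.24 to 0.08), Rpl23a (-0.17 to 0.23), Bdnf (-0.13 to 0.07), Foxn2 (-0.09 to 0.13), Ddx3y (-0.04 to 0.17), Dpy19l1 (-0.05 to 0.14) and Pcdh20 (-0.08 to 0.08). The choroid plexus median went from 1.10 to -0.58 with the covariate, which is built from those genes. The cause of these differences was not tested. At low counts, such as those of the cilia genes, 4 mice per group limit the precision.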
